A study of Homo sapiens with 2 samples.

Results

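Translation initiation factors (eIF) and elongation factors (eEF) are the soluble proteins that bring an mRNA to the ribosome and move the ribosome along it. Their mRNAs were measured here in Argonaute2 (Ago2) precipitates of A549, a long-established line from a human lung adenocarcinoma. The control cells had been transfected with an empty vector, the treated cells overexpressed miR-130b, and both conditions had 1 array. The labels give no vector name, time after transfection or clone. Members were all genes with a single-symbol probe set whose symbol begins with EIF1, EIF2B, EIF2S, EIF3, EIF4A, EIF4B, EIF4E, EIF4G, EIF4H, EIF5, EIF6, EEF1 or EEF2, without Argonaute genes, eIF2 kinases, EIF4EBP1, EEF1E1 and pseudogenes. This gave 54 genes with 62 probe sets, of 18417 named genes on the array. Of the 54, 46 were counted as factors. By name these include EIF4A3, of the exon junction complex, and EIF1AD, a protein with an eIF1A-like domain. The other 8, which the symbols also take in, were described apart: the 4E-binding proteins EIF4EBP2 and EIF4ENIF1, the enzymes EEF2K, EEF2KMT, EEF1AKMT1, EEF1AKMT2 and EEF1AKMT3, and the non-coding transcript EIF3J-DT.

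Initiation starts when eIF2 carries the initiator tRNA to the small ribosomal subunit, with eIF1, eIF1A, eIF3 and eIF5. The cap-binding complex eIF4F (eIF4E, the helicase eIF4A and the scaffold eIF4G) recruits the mRNA, and eIF2B recharges eIF2 with GTP for the next round. Elongation then uses eEF1A to deliver aminoacyl-tRNA and eEF2 to translocate the ribosome. Many mRNAs of ribosomal proteins and of some factors begin with a 5′ terminal oligopyrimidine (TOP) tract, a cytosine at the cap followed by pyrimidines, through which mTOR signalling controls their translation. Ago2 carries microRNAs to mRNAs that pair with their seed. The mature strand of the overexpressed microRNA, with its seed (bases 2 to 8) in capitals, is shown because it sets the treatment, taken from RefSeq (GRCh38.p14, chr22:21653354-21653375, plus strand).
hsa-miR-130b-3p: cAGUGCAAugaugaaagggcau

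All values are log2 expression values, and each difference is the value on the miR-130b array less the value on the empty-vector (control) array. With 1 array per group there is no replicate error, and no test or p-value is given. As a scale for the differences, probe sets of the same gene disagreed in their difference with a pooled SD of 0.16 over 356 genes. These probe sets were read on the same 2 arrays, so the SD leaves out variation between cultures, precipitations and arrays. It is no noise limit for a difference between the conditions. A gene was kept where the average of its 2 values reached the median of the named genes (8.64). That left 9209 genes, among them 39 of the 46 factor genes. The 7 factor genes below it were EIF1B, EIF1AY, EIF2S3B, EIF4E, EIF4E1B, EIF4E3 and EIF5A2. No array of RNA before precipitation was analysed here, so the amount of an mRNA and its share bound to Ago2 cannot be told apart. MIR130B, the gene of the overexpressed microRNA, was 63.3-fold higher on the miR-130b array. Of 9 lung epithelial and A549 markers, 8 were above the filter on mean level and EPCAM was not. Of 12 markers of fibroblasts, leukocytes and endothelium, 4 were above it (COL1A1, CD14, CD68 and CLDN5), while PTPRC, DCN and PECAM1 were between 4.38 and 4.97 on both arrays. The 5 fibroblast markers ran from 4.46 to 8.74 on the control array and from 4.55 to 9.05 on the miR-130b array. Of the 9 epithelial markers, 4 were lower and 5 higher, from CDH1 (E-cadherin) at -1.12 to KRT19 at 0.37. Of the 12 others, 11 were higher, all 5 fibroblast markers among them (0.091 to 0.47), with CD14 the highest at 0.63 and CD68 the 1 that was lower, at -1.18. Most of these 12 lay below the filter, where higher values were usual. Of the named genes there, 65.6% were higher, with a median of 0.081, against 51.5% of all kept genes. The part of these marker shifts in the factor values was not tested.

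The factor mRNAs were slightly lower in the miR-130b precipitate. Of the 39 kept factor genes, 28 were lower and 11 were higher, or 71.8% lower, whereas 48.4% of all kept genes were lower and 51.5% higher. Their median difference was -0.14, against 0.010 over all kept genes, and the single differences ran from -0.78 to 0.38. Most of these shifts were small: 34 of the 39 genes, or 87.2%, differed by less than 2 pooled SDs (0.33), as did 70.4% of all kept genes. At a threshold of 0.32 on the log2 scale, about 2 pooled SDs, 4 factor genes were lower (EIF4A2, EEF1A2, EIF3J and EIF2B3) and 1 was higher (EIF5B), while 15.6% of all kept genes were lower and 14.4% higher by that much. At 1.5-fold EIF4A2 alone was lower and no factor gene was higher, with 5.87% and 5.04% of all kept genes beyond that size. None reached 2-fold in either direction, a size at which 1.6% of kept genes were lower and 1.32% higher. The shift of the group was one of direction, with few large single differences, and it was uneven between complexes. Lower were 11 of 12 eIF3 genes and all 6 elongation factor genes. In the smaller groups 4 of 5 eIF2B, 2 of 3 eIF2, and 2 of 3 eIF5 and eIF6 genes were lower. So were 1 of 2 eIF4F genes, 1 of 3 eIF1 and eIF1A genes, and 1 of 5 among EIF4A3, EIF4B, EIF4H, EIF4E2 and EIF4G2.

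**Figure D1:**
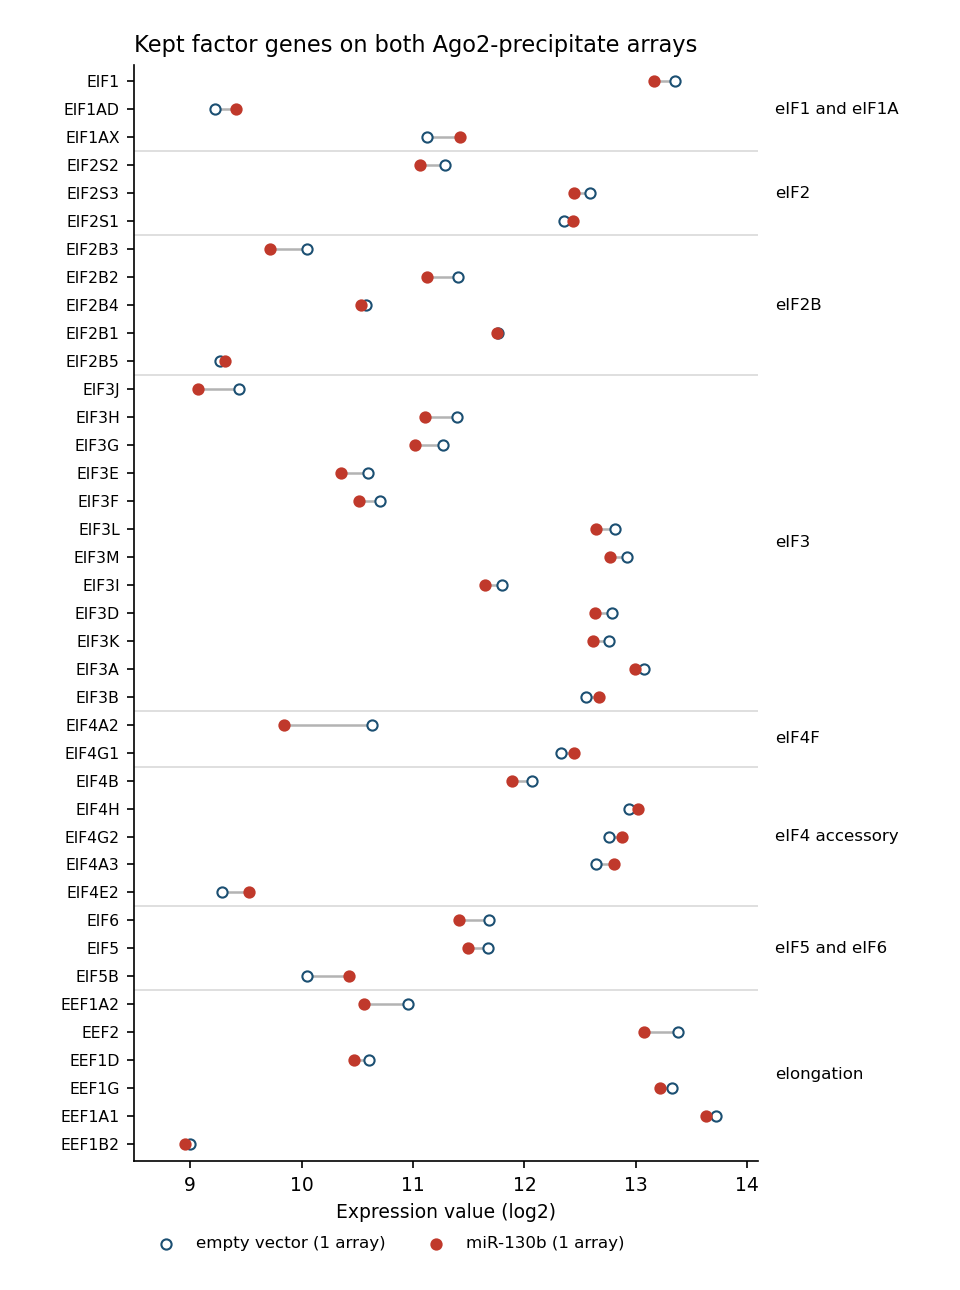
The plot gives the log2 expression value (horizontal axis) of each of the 39 kept factor genes on the empty-vector array (open circles) and on the miR-130b array (filled circles), 1 array each, grouped by complex. The filled circle lies to the left for 28 genes, among them 11 of 12 eIF3 genes and all 6 elongation factor genes, and the widest gap is that of EIF4A2.

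The share of lower factor genes was above that of all genes at high and middle array levels. Kept genes were cut into 4 bands of equal size by mean level. In the highest band (11.27 and above), 47.6% of all genes were lower, and 15 of the 21 factor genes there were lower. In the next band, 49.2% of all genes and 9 of 10 factor genes were lower. In the lowest band 2 of 5 factor genes were lower, against 46.9% of all genes, and in the band above it 2 of 3, against 49.96%.

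The elongation factors were all lower, against 48.4% of all kept genes. EEF2, which encodes the translocase eEF2, was at 13.38 on the control array and 13.07 on the miR-130b array, a difference of -0.31 (1.24-fold lower). EEF1A2, the tissue-restricted isoform of the tRNA-delivering factor, stood at 10.95 and 10.56, a difference of -0.39. Its widely expressed paralog EEF1A1 stood at 13.72 and 13.63, a difference of -0.083. The paralogs thus shared the direction, with the larger difference in EEF1A2.

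The nucleotide exchange subunits of eEF1 differed by less. EEF1D, which encodes the delta subunit, was at 10.61 on the control array and 10.47 on the miR-130b array. EEF1G, the gamma subunit, stood at 13.32 and 13.22, and EEF1B2, a catalytic exchange subunit, at 9.002 and 8.951. Each of these 3 genes was lower by 0.05 to 0.14 on the log2 scale, within the pooled SD between probe sets. The value of EEF1D averages a bright probe set, 12.37 and 12.31, that differed by -0.053 and a dim one, 8.84 and 8.63, that differed by -0.22, so it was -0.053 with the brightest probe set alone. The median of the 6 elongation factors was -0.12, and it lay between -0.14 and -0.092 under the alternative filters, scalings and probe set choice. EEF1A1 is represented by 2 probe sets, which differed by -0.087 and -0.078. EEF1A1 has many processed copies in the genome, so its probes can read more than 1 locus.

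In eIF3, the scaffold of the initiation complex on the small subunit, 11 of 12 genes were lower and the median was -0.16. The lowest was EIF3J, a loosely bound subunit, at 9.44 on the control array and 9.07 on the miR-130b array (1.29-fold lower). EIF3H followed at 11.40 and 11.11, a difference of -0.29, and EIF3G, an RNA-binding subunit, at 11.27 and 11.02, a difference of -0.25. Without EIF3J the median of the complex was -0.16, though leaving out a single gene can move such a median little. Quantile normalization and cyclic loess gave the same counts of 11 lower and 1 higher. In the main values 48.4% of all kept genes were lower.

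The other eIF3 subunits lay close together. EIF3E differed by -0.24, EIF3F by -0.18, EIF3L by -0.17, EIF3M by -0.16, EIF3I and EIF3D both by -0.15, and EIF3K by -0.14. The gap was smallest for EIF3A, the largest subunit, which was at 13.073 on the control array and 12.995 on the miR-130b array. EIF3B, an RNA-recognition subunit of the core, was the 1 gene of the complex that was higher, at 12.56 and 12.67 (0.12). The core subunits EIF3A and EIF3B thus had the highest differences of the complex, and both were within the pooled SD between probe sets. EIF3C, the remaining subunit, shares its probe sets with EIF3CL and is no member; those 2 probe sets held identical values, 12.80 and 12.69, a difference of -0.11.

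In eIF2 and its exchange factor eIF2B the differences were uneven. EIF2S2, which encodes the beta subunit of eIF2, was at 11.29 on the control array and 11.06 on the miR-130b array, a difference of -0.23. EIF2S3, the GTP-binding gamma subunit, stood at 12.59 and 12.45, a difference of -0.14. EIF2S1, the alpha subunit whose phosphorylation slows initiation under stress, was slightly higher, at 12.35 and 12.44 (0.082). The gamma subunit's retrogene EIF2S3B was below the filter, at 7.32 and 6.68.

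Of the 5 eIF2B genes, 4 were lower, with a median of -0.045, while 48.4% of all kept genes were lower. EIF2B3, a subunit of the catalytic part, was at 10.05 on the control array and 9.72 on the miR-130b array, a difference of -0.33 (1.26-fold lower). EIF2B2, of the regulatory part, stood at 11.40 and 11.13, a difference of -0.27. These differed more than the rest: EIF2B4 stood at 10.58 and 10.54, EIF2B1 at 11.76 on both arrays, and EIF2B5, the catalytic subunit, at 9.27 and 9.31. The difference of EIF2B1 was -0.0050 and turned to 0.013 after quantile normalization and 0.014 after cyclic loess, so 3 of 5 were lower under those settings. The differences within eIF2B thus ran from -0.33 to 0.041.

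In the cap-binding group the paralogs went separate ways. EIF4A2, a DEAD-box helicase, had the lowest difference of the kept factor genes, with 10.63 on the empty-vector array and 9.85 on the miR-130b array (1.72-fold lower). The gene lay at the 3.14th percentile of kept genes. Its 2 probe sets differed by -0.67 and -0.89, both more than 2 pooled SDs below 0. EIF4A1, the major helicase paralog, has no single-symbol probe set; the probe set it shares with the SENP3 read-through transcript stood at 13.04 and 13.03. EIF4A3, the paralog of the exon junction complex, stood at 12.64 and 12.80, a difference of 0.16.

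The scaffold and cap-binding genes were slightly higher. EIF4G1 was at 12.33 on the control array and 12.45 on the miR-130b array (0.12), and EIF4G2, a relative that lacks the eIF4E-binding region, was at 12.76 and 12.87 (0.12). Both differences lay within the pooled SD between probe sets. EIF4E2, a cap-binding homolog of eIF4E, stood at 9.28 and 9.53 (0.25). EIF4E itself was below the filter at 7.01 and 7.19, as was EIF4E3 at 7.79 and 8.16 and the germline form EIF4E1B at 8.47 and 8.54. All 4 measured genes of the eIF4E family were thus nominally higher, by 0.065 to 0.38, with 3 of them below the filter on mean level. Higher values were usual there: 65.6% of the 9208 named genes below the filter were higher, with a median of 0.081. Only EIF4A2 and EIF4G1 of eIF4F passed the filter, so the median of that pair (-0.33) describes neither gene, and it was 0.12 with EIF4E included.

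The helicase cofactors were split. EIF4B, which stimulates eIF4A, was at 12.07 on the control array and 11.89 on the miR-130b array, a difference of -0.18 over 3 probe sets. Its 2 bright probe sets, at 13.15 and 12.93 on the control array, differed by -0.086 and -0.098, within the pooled SD between probe sets. The dim one, at 10.13 on that array, differed by -0.35. With the brightest probe set alone the difference of EIF4B was -0.086. EIF4H, a cofactor with a similar role, stood at 12.94 and 13.02 (0.078), and its 2 probe sets, at 0.074 and 0.081, matched closely.

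Start codon selection and subunit joining showed both directions. EIF5B, the GTPase that joins the ribosomal subunits, had the highest difference of the kept factor genes, with 10.05 on the empty-vector array and 10.43 on the miR-130b array (1.30-fold higher). EIF1AX, which encodes eIF1A, the binding partner of eIF5B on the ribosome, stood at 11.12 and 11.42 (0.30), with 2 probe sets at 0.27 and 0.32. EIF1, the gatekeeper of start codon choice, was lower, at 13.36 and 13.16 (-0.19), and its paralog EIF1B stood below the filter at 8.57 and 8.22. EIF5, the GTPase activator of eIF2, stood at 11.67 and 11.49 (-0.18), and EIF6, an anti-association factor of the large subunit, at 11.68 and 11.42 (-0.27). EIF1AD, a protein with an eIF1A-like domain, stood at 9.23 and 9.41 (0.19). Both EIF1AD and EIF4A3 are counted by name among the 11 higher factor genes.

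The hypusine-containing factor eIF5A could be read in part. EIF5A shares its 3 probe sets with EIF5AL1, and these differed by 0.0084 to 0.0095, with values of 12.64 to 12.70 on both arrays. Its paralog EIF5A2 was below the filter, at 8.57 and 8.61. Neither differed by more than the pooled SD between probe sets.

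**Figure D2:**
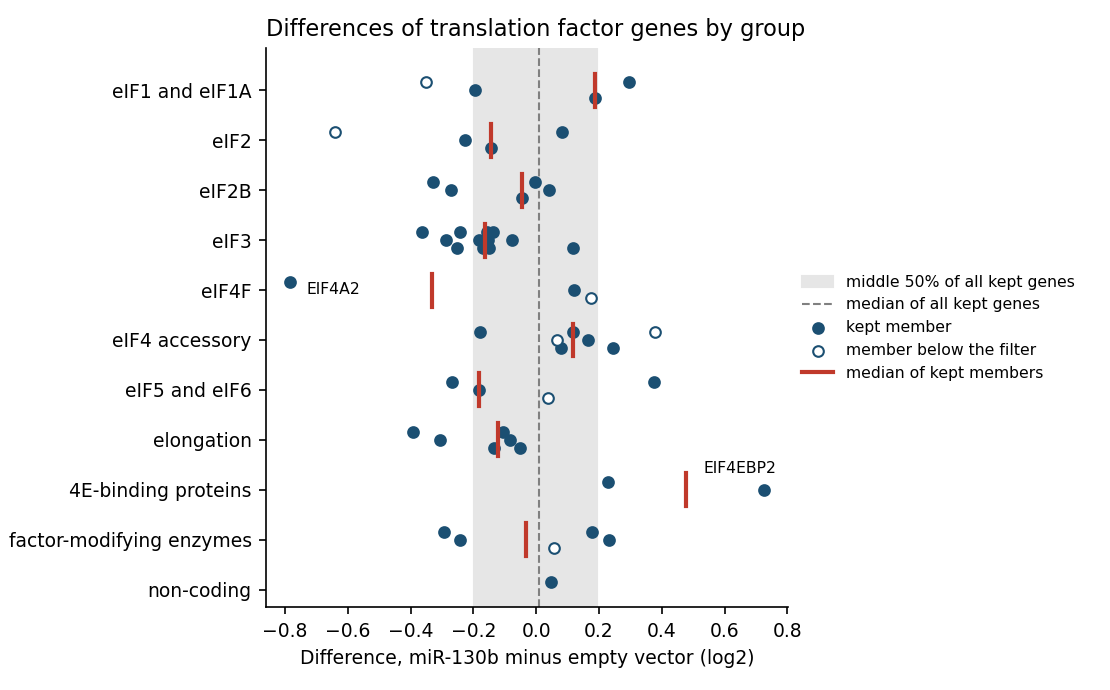
Points give the difference (miR-130b minus empty vector, log2) of each member by group, filled for kept genes and open for genes below the filter on mean level, with EIF1AY left out. Red bars mark the median of kept members where a group has 2 or more, the grey band holds the middle 50% of all kept genes (-0.20 to 0.19), and the dashed line is their median. The elongation factors lie wholly to the left of 0, EIF4A2 is the farthest to the left and EIF4EBP2 the farthest to the right.

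The starts of the factor genes were read for the TOP signature, because the lower members included many mRNAs known for it. RefSeq promoter windows (GRCh38.p14) matched 38 of the 46 factor genes and 31 of the 39 kept ones. The signature searched was a C followed by 4 or more pyrimidines (C or T in any order), on the sense strand, with the C exactly at an annotated start. The 10 kept genes that have it are printed from 10 bases before the start to 20 bases from it, with the run that begins at the start in capitals.
EEF1A1 (chr6:73521013-73521042, minus strand): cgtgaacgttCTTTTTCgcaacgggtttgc
EEF2 (chr19:3985444-3985473, minus strand): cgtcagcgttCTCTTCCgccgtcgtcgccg
EEF1B2 (chr2:206159885-206159914, plus strand): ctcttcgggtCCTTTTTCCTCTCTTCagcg
EIF2S3 (chrX:24054946-24054975, plus strand): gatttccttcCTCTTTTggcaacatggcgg
EIF3D (chr22:36529147-36529176, minus strand): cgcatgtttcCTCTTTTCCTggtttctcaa
EIF3F (chr11:7987327-7987356, plus strand): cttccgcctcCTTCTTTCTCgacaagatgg
EIF3K (chr19:38619178-38619207, plus strand): tttccaccacCTCTTCCTgttcccgtcctt
EIF3M (chr11:32583821-32583850, plus strand): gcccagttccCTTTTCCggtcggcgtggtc
EIF4A2 (chr3:186783567-186783596, plus strand): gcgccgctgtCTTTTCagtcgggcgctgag
EIF4B (chr12:53006446-53006475, plus strand): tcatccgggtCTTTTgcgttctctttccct

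For contrast, 4 factor genes with no such run at their annotated start are shown over the same window. They were picked with the values known and do not stand for all 21 such kept genes, of which 10 were lower and 11 higher. EIF5B, EIF3B and EIF4H were higher with miR-130b, and EEF1G, reported as a TOP mRNA, was lower (-0.11).
EIF5B (chr2:99337379-99337408, plus strand): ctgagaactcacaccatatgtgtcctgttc
EIF3B (chr7:2354817-2354846, plus strand): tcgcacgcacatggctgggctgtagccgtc
EIF4H (chr7:74174346-74174375, plus strand): ctcgctcaccctggttcctctcggagcgga
EEF1G (chr11:62573872-62573901, minus strand): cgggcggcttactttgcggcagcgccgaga

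Among the 31 kept factor genes with a window, the share of lower genes differed by this sequence. All 10 with the run at an annotated start were lower, with a median of -0.15 and a range from -0.78 to -0.052. Of the 21 kept factor genes in the table with no run there, 10 were lower and 11 higher, with a median of 0.041. Over all kept genes with a window, 53.8% with the run and 47.8% without it were lower. Both quantile normalization and cyclic loess left 10 of 10 and 9 of 21 lower. The other 8 kept factor genes (EIF2S2, EIF3A, EIF3E, EIF3G, EIF3H, EIF3L, EEF1A2 and EEF1D) have no window and could be put on neither side. All 8 were lower, with a median of -0.24, below that of the genes with the run. The split was looked for with the values known and is a description of 31 genes. It overlaps with complex, because most genes with the run belong to eIF3 or the elongation factors, which were mostly lower. In these groups EIF3J (-0.36), EIF3I (-0.15) and EEF1G (-0.11) have a window without the run and were lower, while EIF3B (0.12) was higher. Sequence and complex were not separated. EEF1B2 has a second annotated start, upstream, with no run.

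Outside the factors and ribosomal proteins the signature went with a share of lower genes near that of all kept genes. It lay at 4.07% of all 35116 RefSeq starts. Counting a gene if any of its starts had it, 5.14% of 27305 genes and 28.9% of the 38 factor genes had it. Of 510 kept genes with the run that are neither factors nor ribosomal proteins, 50.2% were lower, with a median of -0.0020. Of all 7065 kept genes without the run, 47.8% were lower, with a median of 0.013. The gap between these groups was not tested. Of 32 kept ribosomal protein genes with the run, 31 were lower, with a median of -0.18. The looser form, a run that begins within 20 bases of the start on either side, lay at 51.0% of all starts. Of the kept factor genes, 16 of 23 with it were lower, against 4 of 8 without it. Over all kept genes with a window, 49.9% with it and 46.1% without it were lower.

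A list of factors widely reported as TOP mRNAs gave a similar direction and a smaller contrast. Its 9 members (EEF1A1, EEF1B2, EEF1D, EEF1G, EEF2, EIF3E, EIF3F, EIF3H and EIF4B) were all lower, with a median of -0.18. EEF1G is the 1 of these with a window and no run at its start. Of the other 30 kept factor genes 19 were lower, with a median of -0.14, while 48.4% of all kept genes were lower. The medians differed by -0.039, less than the pooled SD between probe sets, and by 0.035 in the opposite direction with the brightest probe set per gene. With those probe sets the median of the reported list was -0.11.

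**Figure D3:**
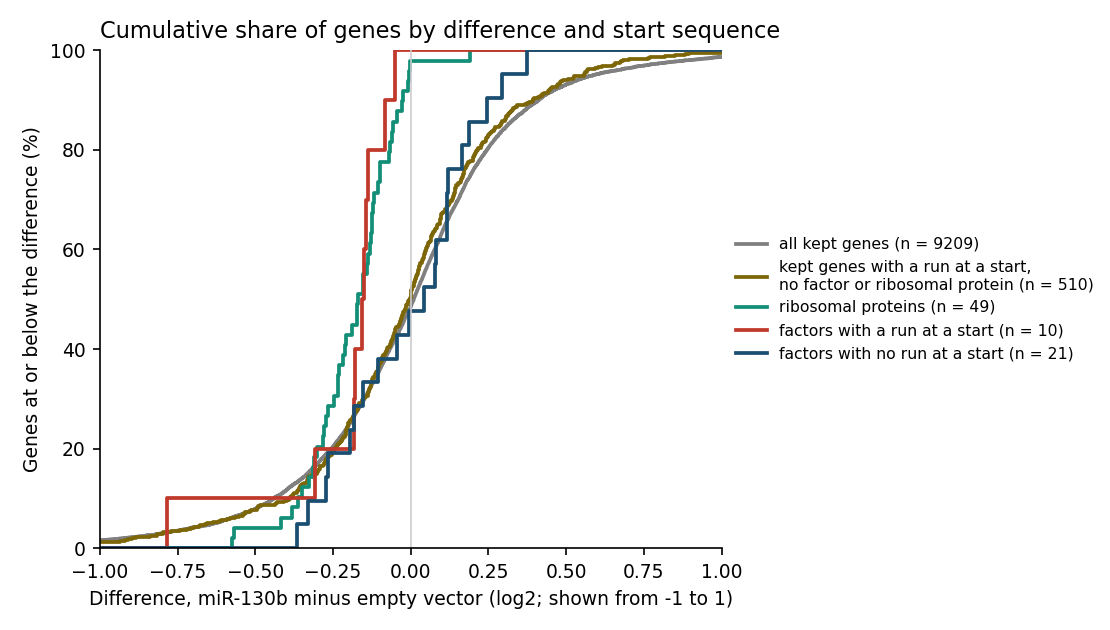
Each line gives the percentage of genes (vertical axis) at or below a difference (horizontal axis, miR-130b minus empty vector, log2, shown from -1 to 1). The 10 factor genes with a pyrimidine run at a start and the 49 ribosomal protein genes lie to the left, whereas the 21 factor genes without it and the 510 other genes with it follow the line of all 9209 kept genes more closely.

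Several factor genes hold genes of small nucleolar or Cajal-body RNAs in their span. RefSeq places such genes in 8 of the 46 factor genes and in EIF4A1. Placement was by position alone, without use of the strand. Of the small RNAs, 9 had a probe set named for them, in 7 host genes, and all 10 of these probe sets were lower, by -1.07 to -0.43. Of all named genes below the filter on mean level, 32.8% were lower. The share over all small RNA probe sets of the array was not counted. The direction can therefore not be called particular to small RNAs inside factor genes. EEF1B2 differed by -0.052 while SNORA41 and SNORD51 inside it differed by -1.07 and -0.66. EEF2 differed by -0.31 and SNORD37 inside it by -0.97. EIF1AX was higher (0.30) while the 2 probe sets of SCARNA9L inside it were at -0.81 and -0.50. In EIF1AX the small RNA probe sets were thus lower where those of the surrounding gene were not. Of the 10 small RNA probe sets, 8 lay below the filter on mean level.

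The helicase genes EIF4A1 and EIF4A2 are both hosts of several such RNAs. In EIF4A1, SNORA67 differed by -0.63 and a probe set shared by SNORA48 and EIF4A1 by -0.65, beside -0.0015 for the probe set shared with the read-through transcript. In EIF4A2, the probe set shared with SNORA4 differed by -0.43. Whether small RNA sequence adds to the value of either EIF4A2 probe set was not tested. Over all kept factor genes, 5 of 8 hosts and 23 of 31 others were lower, while 48.4% of all kept genes were lower.

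**Figure D4:**
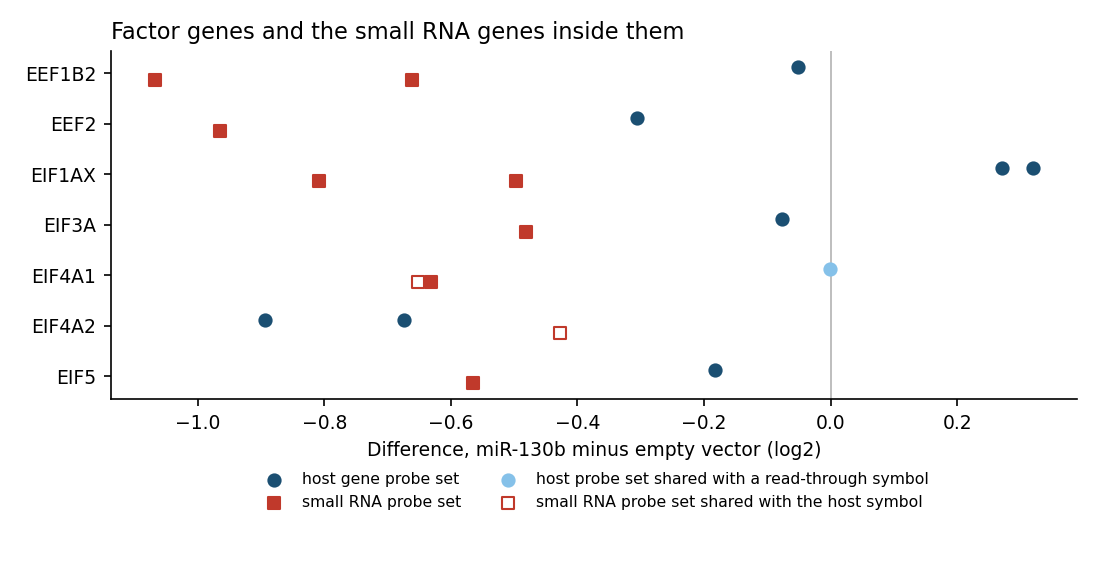
For each host gene the circles give the difference (miR-130b minus empty vector, log2) of its own probe sets and the squares that of the small RNA probe sets inside it, with pale or open symbols for probe sets shared between symbols. All squares lie to the left of 0, from -1.07 to -0.43, while the circles run from -0.89 (EIF4A2) to 0.32 (EIF1AX).

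The 8 members that are no factors were led by a repressor of the cap-binding step. EIF4EBP2, which sequesters eIF4E when it is not phosphorylated by mTOR, was at 10.17 on the control array and 10.90 on the miR-130b array (1.66-fold higher), at the 96.8th percentile of kept genes. Its relative EIF4EBP1, which is no member and is a known target of ATF4, went the other way, at 10.84 and 10.08 (1.70-fold lower). The paralogous repressors thus differed in opposite directions, by 0.73 and -0.76. EIF4ENIF1, the nuclear import partner of eIF4E, stood at 9.48 and 9.71 (0.23).

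The modifying enzymes among the members had small differences. EEF2K, the kinase that inactivates eEF2, was at 9.75 on the control array and 9.93 on the miR-130b array (0.18). EEF2KMT, a lysine methyltransferase of eEF2, stood at 9.94 and 9.64 (-0.29), and 3 probe sets it shares with FAM86 genes differed by -0.47 to -0.42. The methyltransferases of eEF1A were at -0.24 (EEF1AKMT3) and 0.23 (EEF1AKMT2), with EEF1AKMT1 below the filter at 7.57 and 7.62. EIF3J-DT, transcribed away from the EIF3J promoter, stood at 9.05 and 9.09 (0.046), beside the difference of -0.36 for EIF3J.

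The rest of the translation pathway was read from lists drawn up from general knowledge, except for the ribosomal proteins. These were taken by symbol, RPL or RPS with a number and at most an A or X after it. RPLP genes and RPSA were thus left out. For comparison, 48.4% of all kept genes were lower and 51.5% higher, with a median of 0.010. Ribosomal proteins were lower in 48 of 49 kept genes with a median of -0.17, from RPL10A at -0.57 to RPL27A at 0.19; quantile normalization left 44 lower and cyclic loess 45. That median was close to the -0.16 of eIF3 and the -0.12 of the elongation factors. Of 4 other kept TOP mRNAs, 3 were lower (median -0.088), from TPT1 at -0.24 to NAP1L1 at 0.16. Of 5 kept release and recycling factors, 3 were higher (median 0.12), a share not far from that of all kept genes. They ran from DENR at -0.28 to GSPT2, a paralog of the release factor eRF3, at 0.17. Poly(A)-binding proteins and partners were near 0 (6 kept, 2 lower, median 0.025), from PABPC1 at -0.11 to PABPC4 at 0.085.

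A list of enzymes around the factors, most of them in diphthamide and hypusine synthesis, had 6 of 9 kept genes lower, with a median of -0.28. Of all kept genes, 48.4% were lower. The list shares EEF2K with the members and leaves out the methyltransferases. The enzymes among the members, with 2 of 4 kept genes lower, had a median of -0.032. The 6 lower genes of the list make diphthamide on eEF2 (DPH2, DPH3, DPH5, DPH6 and DPH7) or begin hypusine synthesis on eIF5A (DHPS). DPH6 had the lowest difference, at 9.19 on the control array and 8.63 on the miR-130b array (1.48-fold lower). DPH5 stood at 9.01 and 8.47, and DHPS at 10.98 and 10.54. The second hypusine enzyme, DOHH, was the highest of the list, at 9.26 and 9.47 (0.21). At 0.32 on the log2 scale, 4 of the 9 were lower and none higher, against 15.6% and 14.4% of all kept genes.

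The regulators of eIF2 spread widely in both directions. EIF2AK3, the endoplasmic reticulum stress kinase PERK, was at 11.67 on the control array and 10.64 on the miR-130b array (2.03-fold lower). EIF2AK4, the amino acid sensor GCN2, stood at 11.54 and 11.92 (0.38), EIF2AK2, the double-stranded RNA sensor PKR, at 10.21 and 10.53 (0.32), and EIF2AK1 at 12.13 and 12.29 (0.17). PERK was thus the 1 kinase of the 4 that was lower. PPP1R15A, the stress-induced phosphatase subunit GADD34, stood at 12.43 and 11.82 (-0.61), whereas its constitutive partner gene PPP1R15B stood at 11.64 and 11.70 (0.062). EIF2A, an alternative initiator tRNA carrier, stood at 11.16 and 10.47 (1.61-fold lower), and EIF2D differed by -0.28. In all, 4 of the 8 were lower, close to the 48.4% of all kept genes.

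mTOR pathway and mitochondrial factor genes were mostly lower by small amounts, while 48.4% of all kept genes were lower. Of 9 mTOR pathway genes 6 were lower (median -0.12), from MLST8 at -0.34 to RPTOR at 0.18. That list also holds the inhibitors TSC1 (-0.13), TSC2 (-0.28) and DDIT4 (0.11), so its median gives no direction for the pathway. Of 6 kept mitochondrial translation factors 5 were lower (median -0.11), from the initiation factor MTIF2 at -0.35 to the elongation factor TSFM at 0.28. Among the 4 kept repressors of eIF4E and eIF4A, EIF4EBP1 was the 1 that was lower, and PDCD4, an inhibitor of eIF4A, stood at 8.92 and 8.94 (0.020).

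**Figure D5:**
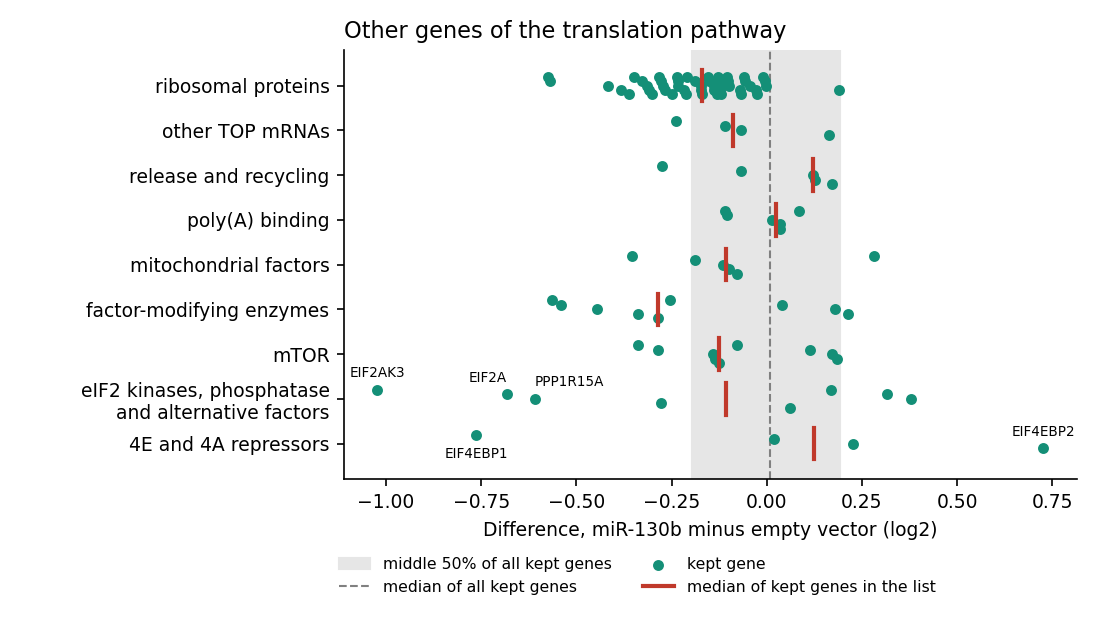
Points give the difference (miR-130b minus empty vector, log2) of each kept gene in 9 lists of the translation pathway, red bars the list medians, the grey band the middle 50% of all kept genes and the dashed line their median. Ribosomal proteins lie to the left of 0 except RPL27A, EIF2AK3 is the farthest to the left, and EIF4EBP1 and EIF4EBP2 lie on opposite sides.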

How the data were processed

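The authors deposited 1 log2 expression value per probe set and array (33297 probe sets, 2 arrays). The log base was taken from the range of the values, 1.95 to 14.2. Per the labels' protocols, cDNA of the whole transcript was labelled with biotin. The sources used here do not give the background correction or the normalization. The extraction protocol in the labels speaks of tissue and a small-RNA kit; the samples are a cell line. Nothing in the labels says that either sample pools several cultures.

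Probe sets were named through the platform annotation (19460 with 1 symbol, 1754 with several, 12083 unnamed here), and 19429 of the 19460 matched RefSeq by Entrez identifier. Probe sets of a gene were averaged (18417 genes). Differences are miR-130b minus empty vector. With 1 array per group nothing was tested, and the number of arrays limits the precision. Fold values are 2 to the power of the difference. Members, lists and the start signature were chosen with earlier results of these data known. Named were all kept members of eIF2, eIF2B, eIF4F and elongation, the 3 highest and lowest of eIF3, members past 0.32 on the log2 scale, paralogs, and the extremes of each pathway list; further members are named to account for them, and pathway genes beyond the extremes were chosen after their values were seen. The averaging and medians were tested on simulated differences. Python 3.11.15, pandas 2.3.3, numpy 2.4.6, matplotlib 3.10.9, R 4.3.3 and limma 3.58.1 were used.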

Additional observations from a re-analysis of the deposited data

How the results depend on the processing

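No paired analysis was possible because each group has 1 array, and for the same reason no replicate could be left out. The median of all kept factor genes stayed between -0.15 and -0.12 under every alternative run, and 24 to 30 factor genes were lower. None of the 46 kept members moved by more than the pooled SD between probe sets. The median of eIF4F was 0.12 without a filter and again under a filter at the 75th percentile, because 1 of its genes was added or lost. Without a filter the median of eIF5 and eIF6 was -0.072, the contrast of TOP with other factors was -0.10, and 2 genes were higher by 0.32 or more. A filter at the 75th percentile gave a median of 0.051 for eIF1 and eIF1A, with 1 gene lower by 0.32 or more and 0 higher. At 1.5-fold these counts were 1 and 0, and at 2-fold 0 and 0. Means in place of medians gave -0.12 for eIF2B and -0.025 for eIF5 and eIF6, and the shared EIF5A probe sets moved the latter to -0.087. The TOP contrast was 0.035 with the brightest probe sets, -0.18 with a run within 20 bases of the start and -0.19 with a run at the start, the last chosen after the data were seen. The files give no detection values, so a gene at background could not be marked.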
